A study of Mus musculus with 6 samples.

Results

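Mitochondrial DNA carries its own small set of genes, and 37 of them were measured in embryonic mouse brains with and without the chromatin protein BAHD1. The members were all rows of the count table whose gene symbol starts with mt-, which gave 37 of 53801 genes: 13 mRNAs, 2 ribosomal RNAs (rRNAs) and 22 transfer RNAs (tRNAs). Whole brains of 6 mouse embryos of the C57BL/6 strain were taken at stage E16.5. The 3 Bahd1-KO embryos carried a knock-out of both copies of Bahd1 (Bahd1-/-), and the 3 Bahd1-WT embryos were Bahd1+/+. The knock-out was present in every cell of the embryo, so that effects in the brain and from outside it were measured together. Polyadenylated RNA was sequenced as stranded libraries, after an extraction that by its protocol loses RNA smaller than 200 nucleotides. The values were raw read counts per gene, and the unit of level is CPM, the counts of a gene per 1e6 counts in that library. Where the values of 3 embryos are listed, they stand in the order of replicates 1, 2 and 3. In bulk tissue, fewer cells of a type and less RNA per cell cannot be told apart.

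The mitochondrial genome is a small circle that is transcribed from both strands into long RNAs. Most tRNAs lie between the other genes, and cutting at the tRNAs releases the mRNAs and rRNAs. The mRNAs encode core subunits of the respiratory chain and of ATP synthase, and the rRNAs and tRNAs serve the ribosome that translates them inside the organelle. Most but not all mitochondrial mRNAs of mammals receive short poly(A) tails, rRNAs receive very short ones, and a selection on poly(A) is known to recover these RNAs unequally. In the GENCODE M21 annotation of GRCm38, 28 members lay on the forward strand of chromosome M and 9 on the reverse strand. The reverse-strand genes were mt-Nd6 and 8 tRNAs.

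The libraries held between 61.7 and 91.8, in units of 1e6 counts. Bahd1 had 2, 10 and 6 counts for Bahd1-KO against 1971, 3102 and 3470 for Bahd1-WT, in accord with the genotype labels. Bahd1-KO replicate 3 stood apart from the other 5 embryos before any comparison was made. The 5 neuron markers summed to 1261 CPM in this library against 7686 to 9147 in the others, with 4 of 5 lowest there and 1, Snap25, highest. Radial glia markers summed to 103 CPM against 744 to 960, and all 5 were lowest in this library. Lung markers summed to 767 CPM against 0.294 to 12.2, with 4 of 5 highest there, led by Sftpc, a surfactant protein gene, with 44670 counts against 0 to 225. Bahd1-KO replicate 2 also held lung markers, at 12.2 CPM against at most 0.570 in the remaining 4 embryos, and its Scgb1a1, a gene of airway epithelium, was at 6.68 CPM against 4.46 in Bahd1-KO replicate 3. Skeletal muscle markers summed to 46.4 CPM against 2.03 to 10.97 and cardiac muscle markers to 53.3 against 2.19 to 5.48, with all 6 of each list highest in this library. By CPM, blood markers (129) lay inside the range of the others, 46.2 to 192 (but above it, at 189 against 44.3 to 173, with the TMM scaling of the tests), and liver markers (44.7 CPM) lay below it, 254 to 776, where Ttr held most of the counts. In this library 3 of the 5 blood markers were highest, and only 1 of the 5 liver markers was lowest. Sftpc had 0 counts in Bahd1-WT replicate 1, and no other marker was at 0 in any embryo. RNAs made without a poly(A) tail were also high: Gm42418, whose annotation covers ribosomal RNA sequence, held 22.6% of this library against 0.120 to 0.394%, and Rn7sk, a small nuclear RNA, reached 2383 CPM against 7.65 to 24.3. Of 8 such nuclear RNAs in the table, 6 were highest in this library and 2 were at 0 in it, of which 1 (Rmrp) was at 0 in every embryo. With 22.1% of its counts in mitochondrial rRNA as well, nuclear protein-coding genes took 49.4% of this library against 92.3 to 95.6% of the others. The scaling used in the tests, TMM (trimmed mean of M-values), sets levels after setting aside the genes that differ most between libraries, and it raised every CPM value of this library 1.46 times while it lowered those of the others to between 0.904 and 0.959 times. The place of this library among the embryos therefore depends on the scale, and both are given where they differ. The labels call all 6 samples brain, and results that rest on this library are given with and without it.

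A stretch of mitochondrial genes was almost without counts. From mt-Ts1 to mt-Nd4l (chromosome M, 6870 to 10173), 11 neighbouring members, 6 mRNAs and 5 tRNAs, held 6 counts in all over the 6 embryos. The mRNAs were mt-Co2 and mt-Co3 of cytochrome c oxidase, mt-Atp8 and mt-Atp6 of ATP synthase, and mt-Nd3 and mt-Nd4l of complex I. Annotated transcripts were compared with the mitochondrial genes by BLAST, at 95% identity or more over 100 bases or more. A row of 7 unprocessed pseudogenes, side by side on the reverse strand of chromosome 1 from 24611535 to 24616197 (4663 bases), held copies of the same stretch in the same order. They copied 7 members: Gm29216 the end of mt-Co1, Gm28661 mt-Co2, Gm10925 mt-Atp6, Gm28437 mt-Co3, Gm28438 mt-Nd3, Gm10222 mt-Nd4l and Gm28439 the start of mt-Nd4. Of the copies, 5 had no mismatch and 2 had 1 each. Mitochondrial and chromosome 1 positions of copied bases summed to 24622578 for 5 of the genes and to 24622577 for mt-Nd4l and mt-Nd4, so the stretch is colinear apart from a single base. mt-Atp8 had no annotated copy and lies inside this colinear stretch, between mt-Co2 and mt-Atp6.

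The differences between the mitochondrial genes and these copies are shown because reads that lack them match both places equally. Positions are counted from 1 at the 5′ end of the mitochondrial gene, sequences run 5′ to 3′ on its strand, and capitals mark the differing base. The substitution is T3C in mt-Nd3 and its copy, and A1066T in mt-Co1 and its copy.
mt-Nd3, bases 1 to 15: atTaacctgtacact
Gm28438, the same bases: atCaacctgtacact
mt-Co1, bases 1063 to 1078: ggaAttgttttatcca
Gm29216, the same bases: ggaTttgttttatcca
At the edges of the aligned part, capitals mark the bases of the mitochondrial gene that aligned with the chromosome 1 copy. Aligned bases are called shared here, and they include the differing bases, such as base 1066 of mt-Co1. The shared part of mt-Nd4 ends at base 876 of 1378, and that of mt-Co1 starts at base 1063 of 1545. In Gm29216 the aligned part starts at base 10 of the annotated copy.
mt-Nd4, bases 862 to 891: TACTCCTCAGTTAGCcacatagcacttgtt
mt-Co1, bases 1048 to 1077: gttggtggtctaaccGGAATTGTTTTATCC
Sequences are those of the GENCODE M21 transcripts (GRCm38), and the bases of chromosome 1 beyond the annotated transcripts were not analysed here.

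**Figure D1:**
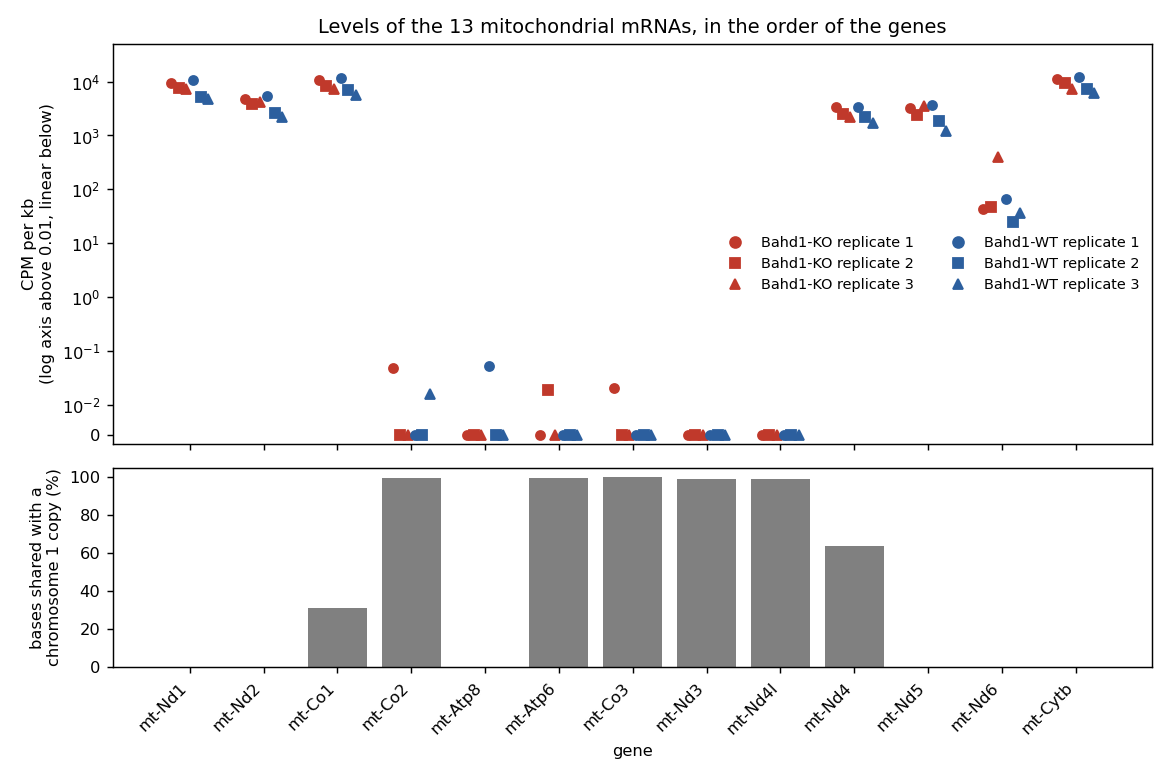
Upper axis: CPM per kb of gene length for the 13 mitochondrial mRNAs in genome order, 1 point per embryo, on a log axis above 0.01. Lower axis: percent of each gene's bases shared with an annotated chromosome 1 copy, as bars from 0. The 6 mRNAs at or near 0 are the 5 that are over 98% shared plus mt-Atp8, while mt-Nd4 (63.6% shared) and mt-Co1 (31.3%) lie with the other mRNAs.

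The 5 mRNAs with most shared bases were at or near 0 counts. Shared bases made up 99.6% of mt-Co2, 99.6% of mt-Atp6, 99.9% of mt-Co3, 99.1% of mt-Nd3 and 99.0% of mt-Nd4l. mt-Co2 had 2 counts in Bahd1-KO replicate 1 and 1 in Bahd1-WT replicate 3, and 0 in the other 4 embryos. mt-Atp6, mt-Atp8 and mt-Co3 had a single count each in all, and mt-Nd3 and mt-Nd4l had none. mt-Atp8 and the 5 tRNAs of the stretch have no shared base in an annotated copy and were at or near 0 too. mt-Nd4, of which 63.6% of the bases are shared, held between 214568 and 435056 counts per embryo. The 7 copies held few counts too: together they had 88, 87 and 127 counts for Bahd1-KO against 143, 93 and 49 for Bahd1-WT. Gm28438, the copy of mt-Nd3, had 36, 56 and 90 counts for Bahd1-KO against 50, 23 and 31 for Bahd1-WT. Gm10925, the copy of mt-Atp6, had 26, 0 and 2 counts for Bahd1-KO against 37, 43 and 4 for Bahd1-WT. Outside chromosome 1, the near-identical copies with most counts were Gm13340 on chromosome 2 (97.6% identical to mt-Co1 over its whole length, 80 to 271 counts per embryo) and Gm13341 on chromosome 2 (95.9% identical to mt-Co2, 17 to 57 counts). The part of read placement in these low counts was not tested, since reads were not used here. Levels of all these genes and copies are therefore uncertain, and the 6 mRNAs give no comparison of genotypes.

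Of the remaining members, 18 had at least 10 counts over the embryos and were tested: 7 mRNAs, 2 rRNAs and 9 tRNAs. In all, 13 members had 0 counts in every embryo (11 tRNAs, mt-Nd3 and mt-Nd4l) and 6 more had 1 to 9 counts. A count of 0 allows a level of up to 0.0327 to 0.0486 CPM per embryo (3 counts, counting error only), but for genes inside the copied stretch this limit covers uniquely placed reads at most. Members together took 5.70%, 4.51% and 26.2% of all counts for Bahd1-KO against 6.15%, 3.44% and 2.85% for Bahd1-WT.

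Messenger RNAs held most of these counts in 5 embryos. Their share of all counts was 5.42%, 4.28% and 4.06% for Bahd1-KO against 5.92%, 3.34% and 2.72% for Bahd1-WT. Bahd1-WT replicate 1 had the highest share and Bahd1-WT replicates 2 and 3 the lowest, so that the genotypes overlapped. The means were 4.59 ± 0.729% among Bahd1-KO and 3.99 ± 1.70% among Bahd1-WT embryos (SD, n = 3 each), a difference of 0.596 percentage points (p = 0.6, exact two-sided permutation test over embryos, where 3 against 3 cannot give less than 0.1). The difference turned to -0.0409 without Bahd1-WT replicate 3 (p = 1.0, exact permutation test). Without Bahd1-KO replicate 3 it was 0.859 (p = 0.6, exact permutation test). The denominator moved the difference to 1.06 percentage points with nuclear genes (p = 0.4, exact permutation test), to 1.24 with the TMM library size (p = 0.3, exact permutation test) and to 1.88 with mitochondrial, ribosomal and untailed RNA left out (p = 0.3, exact permutation test). Bahd1-KO replicate 3 lay inside the range of the other embryos by total counts and by nuclear genes (5.50%), but was the highest of all 6 with the TMM library size (5.95% against at most 5.68%) and with those RNAs left out (7.97% against at most 6.32%).

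**Figure D2:**
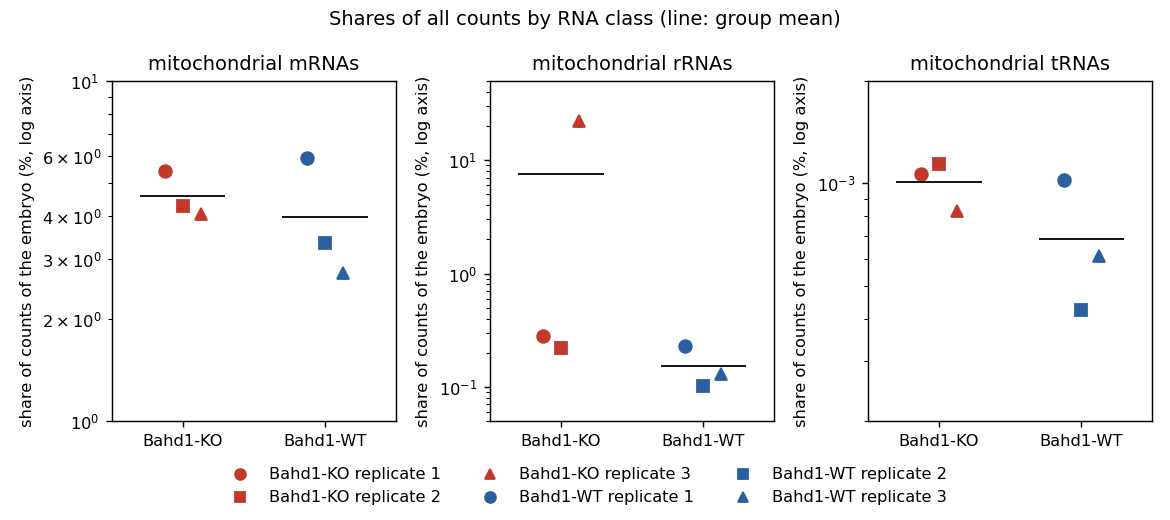
Share of all counts of an embryo (percent, log axes) taken by mitochondrial mRNAs, rRNAs and tRNAs, with 1 point per embryo and a line at the mean of 3 embryos. Bahd1-KO replicate 3 lies at 22.1% for rRNAs, where the other 5 embryos lie between 0.101 and 0.279%, and on this scale of total counts among the others for mRNAs (4.06%) and tRNAs.

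Cytochrome c oxidase, complex IV, was represented by mt-Co1, its catalytic core subunit (chromosome M, 5328 to 6872). mt-Co1 had 1041940, 995620 and 898796 counts for Bahd1-KO against 1661928, 871477 and 787430 for Bahd1-WT. It was the mRNA with most counts in every embryo, 28.0 to 32.0% of all mitochondrial mRNA counts. Its level was 13763 ± 2821 CPM among Bahd1-KO and 12473 ± 4987 CPM among Bahd1-WT embryos (SD, n = 3 each), with overlapping groups and a log2 fold change of 0.34 (SE 0.400, adjusted p 0.773, from the quasi-likelihood test of edgeR fitted across all genes). Every SE given with edgeR is approximate. It is the absolute log2 fold change divided by the square root of the F statistic of the test.

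Complex III was represented by mt-Cytb, which encodes cytochrome b, its only subunit made in the organelle (chromosome M, 14145 to 15288). mt-Cytb had 798964, 818972 and 655906 counts for Bahd1-KO against 1259185, 689568 and 641135 for Bahd1-WT. It made up 20.4 to 25.8% of mitochondrial mRNA counts, with the lowest value in Bahd1-KO replicate 3. mt-Cytb reached a level of 10655 ± 2318 CPM among Bahd1-KO and 9732 ± 3526 CPM among Bahd1-WT embryos, with a fold change of 0.32 in log2 (SE 0.372, adjusted p 0.772, edgeR).

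Complex I, which takes electrons from NADH, was represented by 5 tested subunits. mt-Nd1 (chromosome M, 2751 to 3707) had 556060, 559419 and 541702 counts for Bahd1-KO against 928512, 411677 and 421926 for Bahd1-WT, a share of mRNA counts between 15.1 and 17.1% in every embryo. Its level was 7729 ± 1131 CPM among Bahd1-KO and 6595 ± 3057 CPM among Bahd1-WT embryos, and the log2 fold change stood at 0.44 (SE 0.417, adjusted p 0.726, edgeR). mt-Nd2 had 302056, 305022 and 338839 counts for Bahd1-KO against 522301, 223870 and 210213 for Bahd1-WT. In both genes the highest and the lowest CPM belonged to Bahd1-WT embryos, while on the TMM scale Bahd1-KO replicate 3 was the highest. Single Bahd1-WT embryos set the size of these fold changes: without Bahd1-WT replicate 1 the log2 fold change was 0.70 for mt-Co1, 0.64 for mt-Cytb and 0.88 for mt-Nd1, and without Bahd1-WT replicate 3 it was 0.11, 0.11 and 0.22. Without Bahd1-WT replicate 2 it was 0.23, 0.21 and 0.27, close to the values without Bahd1-KO replicate 3 (0.23, 0.25 and 0.27). mt-Nd4 had 281729, 259114 and 242414 counts for Bahd1-KO against 435056, 246006 and 214568 for Bahd1-WT. mt-Nd5 had 364466, 335368 and 514011 counts for Bahd1-KO against 624848, 280570 and 205024 for Bahd1-WT. Within the mRNAs, mt-Nd5 took 16.02% in Bahd1-KO replicate 3 against 8.26 to 11.5% in the other 5 embryos. There were 1.75 mt-Co1 counts per mt-Nd5 count in that library, against 2.66 to 3.84 elsewhere.

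The order of the mRNAs per length was nearly fixed. On the scale of CPM per kb, mt-Cytb, mt-Co1, mt-Nd1 and mt-Nd2 ranked 1 to 4 in 5 of the embryos, and in Bahd1-KO replicate 3 mt-Co1 ranked above mt-Cytb. mt-Nd4 and mt-Nd5 changed places at ranks 5 and 6 between embryos, and mt-Nd6 was last in all 6. Averaged over embryos, the levels were 8910 CPM per kb for mt-Cytb, 8490 for mt-Co1, 7484 for mt-Nd1, 3840 for mt-Nd2, 2677 for mt-Nd5, 2556 for mt-Nd4 and 102 for mt-Nd6. mt-Cytb and mt-Co1 differed by less than the spread between embryos, which ran from 6139 to 11992 for mt-Cytb. If the length outside the chromosome 1 copy is used instead, a choice made after seeing the data, mt-Nd4 rises to 7016 and mt-Co1 to 12352 CPM per kb, which sets mt-Co1 first and mt-Nd4 above mt-Nd2.

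mt-Nd6, the complex I subunit and single mRNA on the reverse strand (chromosome M, 13552 to 14070), behaved differently in Bahd1-KO replicate 3. It had 1358, 1865 and 16185 counts for Bahd1-KO against 3203, 1063 and 1726 for Bahd1-WT. Per 1000 counts of the forward-strand mRNAs this was 0.406, 0.570 and 5.07 for Bahd1-KO against 0.590, 0.390 and 0.696 for Bahd1-WT. Apart from Bahd1-KO replicate 3 the genotypes were interleaved. The log2 ratio differed by 0.96 between genotypes (p = 0.7, exact two-sided permutation test), and by -0.18 without that library (p = 0.8, exact permutation test). The log2 fold change of mt-Nd6 was 2.45 (SE 1.09, adjusted p 0.696, edgeR) in all embryos and 0.02 (SE 0.410) without Bahd1-KO replicate 3.

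Both ribosomal RNAs depended on a single library. mt-Rnr1, the RNA of the small ribosomal subunit (chromosome M, 70 to 1024), had 74617, 73145 and 8100844 counts for Bahd1-KO against 94311, 40086 and 54487 for Bahd1-WT. mt-Rnr2, the RNA of the large subunit (chromosome M, 1094 to 2675), had 97460, 95061 and 9335352 counts for Bahd1-KO against 114114, 42177 and 63451 for Bahd1-WT. Bahd1-KO replicate 3 held 120 times the mean CPM of the other 5 embryos for mt-Rnr1 and 112 times for mt-Rnr2, or 188 and 176 times on the TMM scale. In Bahd1-KO replicate 3 the counting error of the rRNA share was small (95% Wilson interval 22.08 to 22.10%). The rRNA share of all counts was 0.279%, 0.220% and 22.1% for Bahd1-KO against 0.227%, 0.101% and 0.129% for Bahd1-WT. This gave 7.53 ± 12.6% against 0.152 ± 0.0662% (SD, n = 3 each, p = 0.2, exact permutation test), and without Bahd1-KO replicate 3 a difference of 0.0970 percentage points (p = 0.4, exact permutation test). Neither rRNA had an annotated transcript 95% or more identical over 100 bases.

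The ratio of rRNA to mRNA inside each library does not depend on the scaling. It was 51.4, 51.4 and 5435 rRNA counts per 1000 mRNA counts for Bahd1-KO against 38.3, 30.2 and 47.5 for Bahd1-WT. All 3 Bahd1-KO embryos lay above all 3 Bahd1-WT embryos, and the log2 difference was 2.68 (p = 0.1, exact two-sided permutation test, the smallest p this design allows). With medians over genes in place of sums the log2 difference was 2.40 (p = 0.3, exact permutation test). Without Bahd1-KO replicate 3 the log2 difference was 0.43 (p = 0.2, again the smallest possible, exact permutation test). The untailed Rn7sk was also high in Bahd1-KO replicates 1 and 2, at 24.3 and 17.3 CPM against 7.65, 8.12 and 10.2 in Bahd1-WT. Gm42418 took 0.291 and 0.394% there against 0.120, 0.148 and 0.250%. Without Bahd1-KO replicate 3, of 5 tested untailed nuclear RNAs 4 had a fold change above 0 and 1 below. The part of untailed RNAs in the rRNA ratio was not tested. The counts of both rRNAs kept a similar proportion in every embryo, with 1306, 1300 and 1152 mt-Rnr2 counts per 1000 mt-Rnr1 counts for Bahd1-KO against 1210, 1052 and 1165 for Bahd1-WT (p = 0.3, exact permutation test of the log2 ratio).

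**Figure D3:**
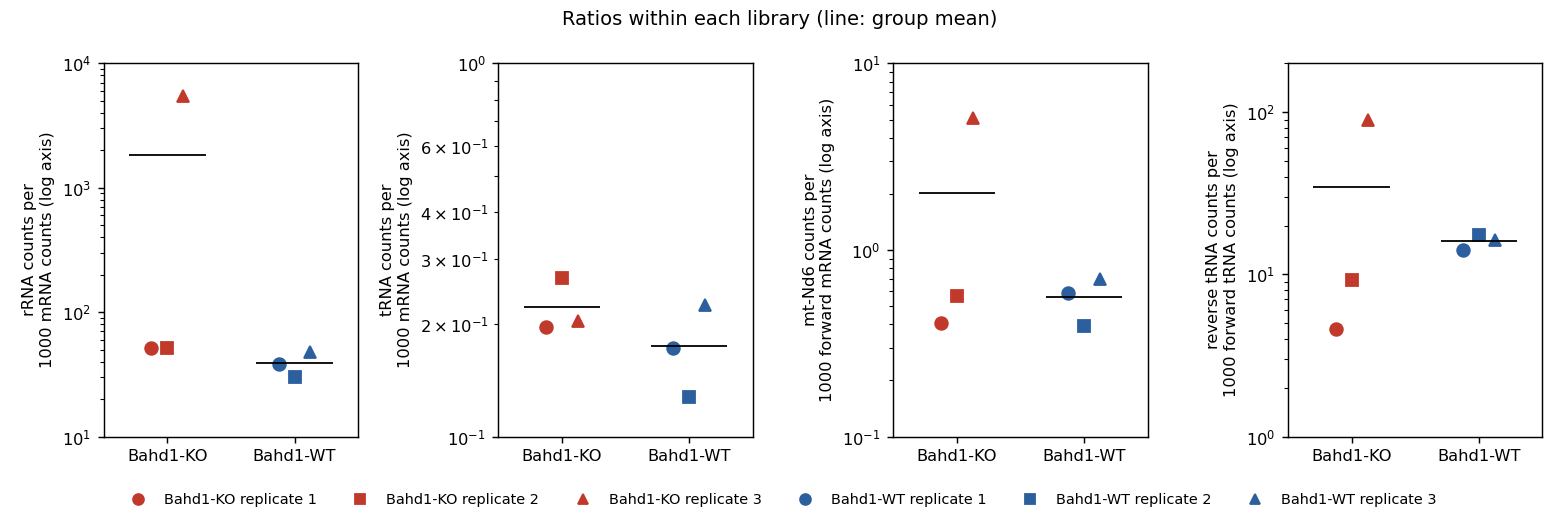
Ratios of counts inside each library, per 1000 counts of the reference class (log axes): rRNA to mRNA, tRNA to mRNA, mt-Nd6 to forward-strand mRNA, and reverse-strand to forward-strand tRNA, with 1 point per embryo and a line at the group mean. Bahd1-KO replicate 3 is far above the others in 3 of the ratios, at 5435, 5.07 and 89.7, and among them for tRNA to mRNA.

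Transfer RNAs are shorter than the RNA that the extraction retains, and they gave 4022 counts in all. The class took 0.00106%, 0.00114% and 0.000831% of counts for Bahd1-KO against 0.00102%, 0.000425% and 0.000611% for Bahd1-WT. Bahd1-WT replicate 1 lay among the Bahd1-KO embryos (p = 0.2, exact permutation test). With counts of nuclear genes, the TMM library size or counts without mitochondrial, ribosomal and untailed RNA as denominator the groups no longer overlapped, and the p of the exact permutation test was 0.1 with each. The nearest embryos then lay close together. Bahd1-WT replicate 1 stood at 0.001087% with nuclear genes, 0.000978% with TMM and 0.001088% with those RNAs left out. The lowest Bahd1-KO embryos stood at 0.001125% (replicate 3), 0.001001% (replicate 1) and 0.001131% (replicate 1). Per 1000 mRNA counts there were 0.196, 0.265 and 0.204 tRNA counts for Bahd1-KO against 0.172, 0.127 and 0.225 for Bahd1-WT, which overlapped (p = 0.3, exact permutation test).

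A single tRNA gene, mt-Ti (tRNA for isoleucine, chromosome M, 3706 to 3774), held 79.4% of all tRNA counts. It had 598, 751 and 285 counts for Bahd1-KO against 769, 299 and 493 for Bahd1-WT. Its share of tRNA counts was 43.4% in Bahd1-KO replicate 3 and 82.2 to 91.2% in the other 5 embryos. mt-Ti shares its first 2 bases with the end of mt-Nd1 on the same strand and its last 3 bases with mt-Tq on the opposite strand. Its sequence is shown because a read placed on it can run into a neighbouring gene, and capitals mark the bases it shares with mt-Nd1 and with mt-Tq.
mt-Ti: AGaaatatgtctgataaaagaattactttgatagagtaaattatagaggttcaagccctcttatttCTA
The log2 fold change of mt-Ti was 0.52 (SE 0.431, adjusted p 0.705, edgeR), and 0.72 (SE 0.368) without Bahd1-KO replicate 3.

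mt-Tm (tRNA for methionine, chromosome M, 3845 to 3913) was the next most abundant, with 34, 47 and 243 counts for Bahd1-KO against 81, 23 and 14 for Bahd1-WT. The log2 fold change of this gene came to 2.16 (SE 1.08, adjusted p 0.696, edgeR) and 0.36 (SE 0.679) without Bahd1-KO replicate 3. The other 7 tested tRNAs had few counts. mt-Tl1 had 7, 7 and 17 counts for Bahd1-KO against 21, 8 and 7 for Bahd1-WT, mt-Tw had 12, 39 and 36 against 29, 4 and 15, and mt-Tt had 2, 17 and 8 against 23, 7 and 20. mt-Tv, which lies between the rRNA genes, had 13 counts in Bahd1-KO replicate 3 and 0 in every other embryo. The reverse-strand mt-Tq had 2, 5 and 31 counts for Bahd1-KO against 4, 2 and 3 for Bahd1-WT, mt-Tp had 1, 2 and 17 against 4, 1 and 2, and mt-Te had 0, 0 and 3 against 2, 3 and 2. Of the untested tRNAs, mt-Ta had 8 counts and mt-Tc 1 in all.

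The reverse-strand genes mt-Nd6, mt-Tq and mt-Tp were all high in Bahd1-KO replicate 3, and so were the forward-strand rRNAs and mt-Tm. The 8 reverse-strand tRNAs had 3, 8 and 54 counts for Bahd1-KO against 13, 6 and 9 for Bahd1-WT, or 4.59, 9.29 and 89.7 per 1000 forward-strand tRNA counts for Bahd1-KO against 14.1, 17.6 and 16.4 for Bahd1-WT. Without Bahd1-KO replicate 3, both remaining Bahd1-KO embryos, with 3 and 8 counts, were under the lowest Bahd1-WT value. In all embryos the log2 ratio differed by -0.03 (p = 1.0, exact permutation test). The CPM of Bahd1-KO replicate 3 was 9.88 times the mean of the other 5 embryos for mt-Tq, 9.05 times for mt-Nd6, 8.96 times for mt-Tp and 6.20 times for mt-Tm. The forward-strand mRNAs lay between 0.786 times (mt-Cytb) and 1.43 times (mt-Nd5), and mt-Ti was lowest at 0.488 times. On the TMM scale these ratios were 15.6 for mt-Tq, 14.2 for mt-Nd6, 14.1 for mt-Tp and 9.70 for mt-Tm, and all 6 forward-strand mRNAs lay above 1, from 1.24 (mt-Cytb) to 2.24 (mt-Nd5), with mt-Ti at 0.769. mt-Tq and mt-Tp rest on 16 and 10 counts in the other 5 embryos, and mt-Te and mt-Tv reached the 10 counts needed for testing only with those of Bahd1-KO replicate 3. These values describe 1 library, and the same library holds the lung and muscle markers and the untailed RNAs given above. Their part in the strand pattern was not tested.

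**Figure D4:**
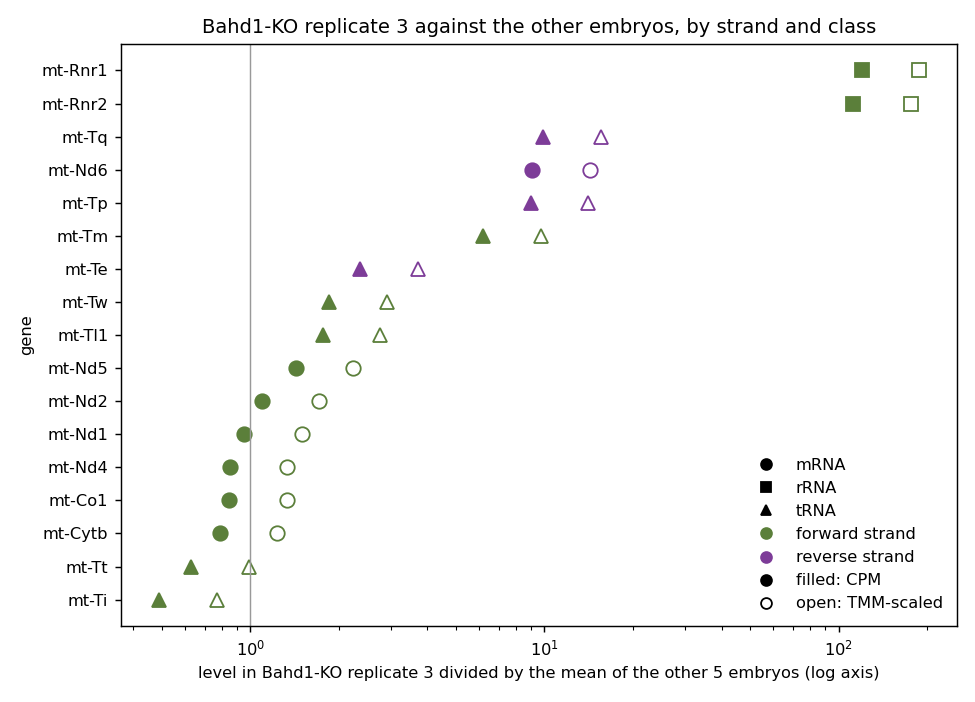
Level in Bahd1-KO replicate 3 divided by the mean of the other 5 embryos (log axis) for 17 tested members, by CPM (filled) and on the TMM scale (open), with shape giving RNA class and colour giving strand. By CPM the rRNAs lie at 120 and 112, the reverse-strand genes between 2.36 and 9.88 and the forward-strand mRNAs between 0.786 and 1.43, all further right on the TMM scale, and mt-Tv, at 0 counts in the other embryos, has no ratio.

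In the comparison of genotypes across all genes, no member passed. The quasi-likelihood test of edgeR, with libraries scaled by TMM and p-values adjusted by Benjamini and Hochberg over 24739 genes, called 0 of the 18 members at an adjusted p of 0.05, where 0.00404% of all genes were called (1 gene, Bahd1). Adjusted p-values of the members lay between 0.696 and 0.888. An unadjusted p under 0.05 was given to 2 members, mt-Rnr1 (log2 fold change 6.26, SE 2.09) and mt-Rnr2 (6.26, SE 2.07), and to 4.67% of all genes. Without Bahd1-KO replicate 3, 0 members were called, where 0.0171% of all genes were, and 0 had an unadjusted p under 0.05, where 1.48% of all genes had. The rRNA log2 fold changes then were 0.59 (SE 0.334) and 0.75 (SE 0.368). DESeq2 called 0 members as well, where 0.0323% of all genes were called. It withheld the p-values of both rRNAs and mt-Nd6, and gave an unadjusted p under 0.05 to 2 members, mt-Tq and mt-Tm, and to 5.12% of all genes.

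**Figure D5:**
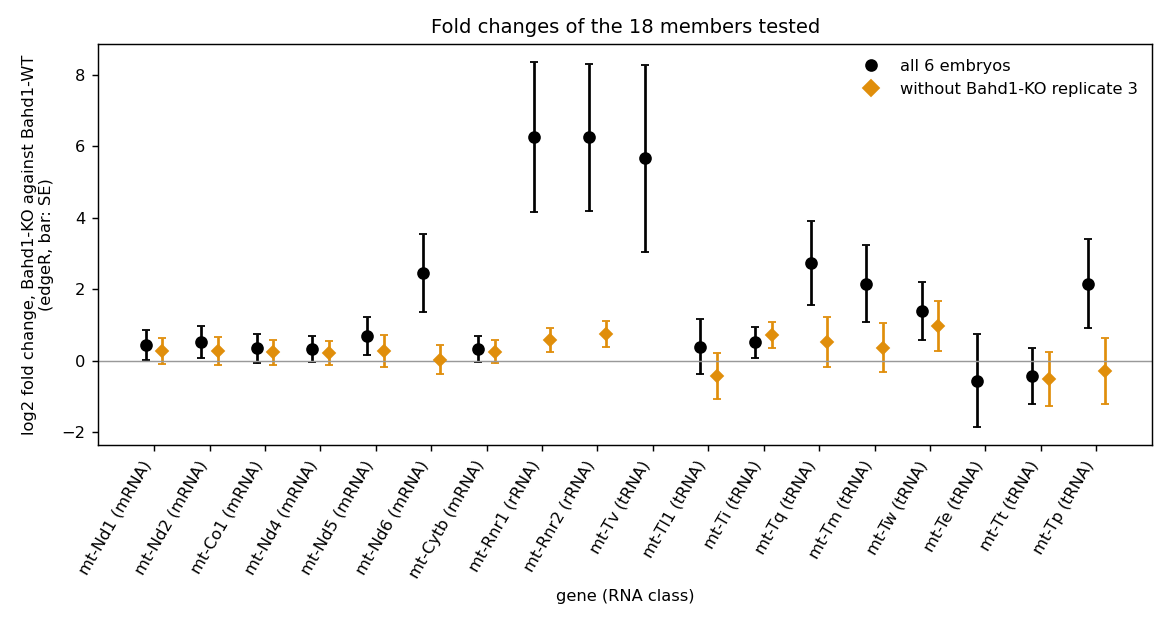
Log2 fold change of Bahd1-KO against Bahd1-WT (points) with its SE (bars) for the 18 tested members in all 6 embryos, and for the members still tested without Bahd1-KO replicate 3. The SE was derived from the F statistic of the edgeR test. The mRNAs other than mt-Nd6 stay between 0.2 and 0.7 in both, while the rRNAs go from 6.26 to 0.59 and 0.75 and mt-Nd6 from 2.45 to 0.02.

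By class, all 7 mRNAs had a fold change above 0 and none passed, with a median log2 fold change of 0.44 (0.25 without Bahd1-KO replicate 3, 0.88 without Bahd1-WT replicate 1 and 0.22 without Bahd1-WT replicate 3) beside a median of 0.06 over all genes tested (-0.01 without it). The 9 tested tRNAs had 7 values above 0 and 2 below, with a median of 1.39 (0.36 over 7 tRNAs without Bahd1-KO replicate 3). With total counts in place of TMM, the median of all genes moved to -0.11 and that of the mRNAs to 0.23, and with upper-quartile factors to 0.17 and 0.54. By CPM, 1 of 18 members did not overlap between genotypes and was higher in Bahd1-KO (5.56%), where 3.97% of all tested genes did so. It was mt-Rnr2, where the nearest embryos were Bahd1-KO replicate 2 at 1243.35 CPM and Bahd1-WT replicate 1 at 1243.3 CPM. On the TMM scale these embryos lay at 1126 and 1192, and the groups overlapped. No member lay lower in Bahd1-KO without overlap, where 2.09% of all tested genes did.

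Nuclear genes that make, process and translate mitochondrial RNA did not pass either. Of 53 genes of mitochondrial DNA expression tested, 0 were called, with 26 fold changes above 0 and 27 below (median 0.00, or 0.09 without Bahd1-KO replicate 3, with 32 above and 21 below). The list covered 9 genes of transcription and packaging (median 0.11), 8 of replication (-0.06), 19 of RNA processing, tailing, stability and decay (-0.03), 7 of rRNA modification (-0.10) and 10 of tRNA modification (0.02). Tfam, which packages mitochondrial DNA and starts its transcription, stood at 63.0, 55.7 and 29.0 CPM for Bahd1-KO against 54.6, 42.5 and 56.1 CPM for Bahd1-WT (log2 fold change 0.10, SE 0.247, adjusted p 0.895, edgeR).

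Polrmt, the mitochondrial RNA polymerase, stood at 4.002, 15.6 and 2.28 CPM for Bahd1-KO against 7.44, 20.8 and 20.6 CPM for Bahd1-WT. Replicate 1 of both genotypes and Bahd1-KO replicate 3 were low, and the groups overlapped (log2 fold change -1.08, SE 0.668, adjusted p 0.696, edgeR). Lrpprc, which stabilises mitochondrial mRNAs, stood at 84.9, 84.1 and 35.8 CPM for Bahd1-KO against 85.9, 82.7 and 91.9 CPM for Bahd1-WT (log2 fold change -0.21, SE 0.246, adjusted p 0.769, edgeR). By CPM, Bahd1-KO replicate 3 was the lowest for Tfam, Polrmt and Lrpprc. On the TMM scale it was the lowest for Polrmt and Lrpprc, and for Tfam it lay inside the range of the others (42.4 against 39.3 to 59.4).

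Among the enzymes that charge mitochondrial tRNAs with amino acids, 0 of 21 tested genes were called, with 5 fold changes above 0 and 16 below (median -0.17, and -0.06 without Bahd1-KO replicate 3). Lars2, the mitochondrial leucyl-tRNA synthetase, was the exception in size. It stood at 112, 111 and 4456 CPM for Bahd1-KO against 59.2, 83.1 and 93.4 CPM for Bahd1-WT, without overlap. By CPM it was the 1 gene of these 21 that lay higher in Bahd1-KO without overlap, where 3.97% of all tested genes did. The log2 fold change of this gene came to 4.95 (SE 1.68, adjusted p 0.696, edgeR), and 0.49 without Bahd1-KO replicate 3. By CPM, the other 20 genes of this list were lowest in Bahd1-KO replicate 3, while on the TMM scale 14 of the 21 were lowest there and 3, Lars2, Iars2 and Fars2, were highest. These genes were named after their values were seen.

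The nuclear subunits of ATP synthase and of complex II, which has no mitochondrially encoded subunit, were listed as the partners of what mitochondrial DNA encodes. Of 19 tested, 0 were called, with 3 fold changes above 0 and 16 below (median -0.33, and -0.13 with 5 above and 14 below without Bahd1-KO replicate 3). Their summed level was 2129, 2834 and 1330 CPM for Bahd1-KO against 2281, 2547 and 3192 CPM for Bahd1-WT, lowest in Bahd1-KO replicate 3, as on the TMM scale (1946 against 2006 to 2885). The list of untailed nuclear RNAs had 6 genes tested, 6 of them with a fold change above 0 and 0 called, with a median of 6.14. Without Bahd1-KO replicate 3 the median was 1.24 over 5 genes.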

How the data were processed

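Raw read counts per gene of 6 embryo brains were analysed. According to the study's methods and the labels, the authors trimmed reads with cutadapt (version 1.11), aligned them to GRCm38 and counted them over exons by strand with featureCounts (version 1.4.6-p3), and these deposited counts carried no normalization. Both STAR (version 2.5.0a in the submitters' processing notes) and TopHat2 are named for alignment, and which made the table is not stated. How reads with several placements were treated is not stated.

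Groups and replicate numbers came from sample titles. Genes whose counts summed to 10 or more were tested two-sided with edgeR 4.0.16 (R 4.3.3, genotype as the single term), checked on simulated counts. The SE of these fits was derived from the log2 fold change and the F statistic. The simulated counts held no library like Bahd1-KO replicate 3, so the check does not cover the effect of that library on the test. DESeq2 1.42.0 and limma 3.58.1 (voom) were alternatives. CPM used total counts. Shares and log2 ratios were tested by exact permutation over embryos (SciPy 1.17.1). Positions, lengths and sequences came from GENCODE M21, which matched 53620 genes (99.7%), and copies were sought with BLAST 2.17.0. Embryos were the replicates, described as biological replicates. Litters were not given, so the p-values take these 6 embryos as independent, which could not be checked.

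Members, gene lists and tests were chosen with earlier results of these data known. The named members were all mRNAs and rRNAs, the top 2 tRNAs by mean CPM, the near-identical copies with most counts, and Tfam, Polrmt and Lrpprc. Other genes were named after their values were seen. The nuclear lists covered mitochondrial DNA expression, tRNA charging, ATP synthase with complex II, untailed RNAs, and markers of neurons, radial glia, skeletal and cardiac muscle, lung, blood and liver. Alternatives covered the count filter, scaling, test, replicate block and each embryo left out.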

Additional observations from a re-analysis of the deposited data

How the results depend on the processing

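Under all 16 alternatives of the fits, 0 members and 0 genes of mitochondrial DNA expression were called. The median log2 fold change of the rRNAs, 6.26, moved to 1.46 with voom and quality weights, to 2.22 with the replicate block, to 0.67 with DESeq2 and Bahd1-KO replicate 3 left out, and ranged from 0.67 (without Bahd1-KO replicate 3) to 6.84 with 1 embryo left out. With 1 embryo left out, the difference in mRNA share, 0.596 percentage points, ranged from -0.0409 (without Bahd1-WT replicate 3) to 1.56 (without Bahd1-WT replicate 1). It reached 1.88 with mitochondrial, ribosomal and untailed RNA left out of the denominator. The log2 ratio of mt-Nd6 to forward-strand mRNAs, 0.96, ranged from -0.18 (without Bahd1-KO replicate 3) to 1.65. The log2 ratio of tRNA to mRNA, 0.37, was -0.63 when medians over genes replaced sums. The log2 fold change of Tfam, 0.10, was -0.052 with total counts and 0.32 with voom and quality weights. With 1 embryo left out it ranged from -0.035 (without Bahd1-WT replicate 2) to 0.20 (without Bahd1-KO replicate 3). The causes were not tested.

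Same-numbered embryos did not stand out as pairs: their deviations correlated at 0.12, 0.18 and -0.09. Embryos with different numbers correlated from -0.36 (Bahd1-KO replicate 2 with Bahd1-WT replicate 1) to 0.25 (Bahd1-KO replicate 2 with Bahd1-WT replicate 3). With the replicate block, 0 members were called, and the medians were 0.53 for mRNAs and 1.48 for tRNAs. Of 331 recomputed values, 312 kept their direction and side of the threshold or moved by less than the spread between embryos, and Bahd1 itself lost its call in 7 of 16 alternatives. A permutation p cannot fall under 0.1 here and no member passed in any fit, so keeping the side of the threshold says little about size. The 312 include mt-Rnr1 at 0.59 in place of 6.26 and mt-Nd6 at 0.02 in place of 2.45, both without Bahd1-KO replicate 3. Low counts limit what can be read from the tRNAs, of which 1 exceeded 1000 counts over the 6 embryos. The parts of depth, RNA size and poly(A) selection in these low counts were not tested.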
